A study of Homo sapiens with 20 samples.

Results

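Clone P2 (U937T_vec) consists of U937T cells that carry the empty expression vector, and it was compared here with U937T, the parental line. Neither holds the EVI1 transgene that the study induced in other clones, and both served there as controls for tet withdrawal, so that the comparison shows how far the controls differ from each other. Members were chosen by line and time alone, not by expression: both arrays of P2 and both arrays of U937T, which makes 4 of the 20 arrays in the series. All 4 were taken at 48 h, 1 array with tetracycline (tet) and 1 array without tet for each line, and the difference P2 minus U937T was taken within each tet condition.

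U937 is a human leukemia line of myelomonocytic type. In U937T cells the tet-regulated transactivator is silenced by tet, so that a transgene stays off in its presence and comes on when it is washed out. An empty vector clone passes through the same gene transfer, drug selection and cloning as the clones with the transgene and lacks the cDNA. Cells grown from a single founder share its genome and much of its expression pattern.

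The P2 cultures were grown with 500 µg/ml hygromycin, 0.5 µg/ml puromycin and, in the culture with tet, 1 µg/ml tetracycline. The U937T cultures had the same puromycin and tet but no hygromycin. The vector, the hygromycin and the derivation of P2 as a clone of U937T cells therefore go together, and the 3 cannot be told apart. The clones E10 and E14 (U937T_EVI1-HA), which carry tet-repressible, HA-tagged EVI1 and were grown with hygromycin like P2, have 4 arrays at 48 h that are set beside the control lines, chiefly those with tet, where the transgene is off. The other 12 arrays, of these clones at earlier times, entered the estimate of the spread. Some of them also entered the filter on intensity, and so helped to decide which probe sets and genes were tested. All of them entered an added fit of E10 minus E14 over every clone array. Each line and condition was hybridized once and nothing was replicated within it, so that the p-values hold no spread between repeat cultures. Their spread is only how far the lines depart from a constant difference over conditions. For the dependence on tet, E10 and E14 alone give that spread.

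Levels are the authors' log2 intensities after Robust Multi-array Analysis (RMA) on Affymetrix HG-U133 Plus 2.0 arrays, where a difference of 1 is 2-fold. They cover 17860 genes, each read by 1 probe set. The array medians of all 20 arrays lay between 5.25 and 5.35. The level of 3′ minus 5′ control probe sets for ACTB and GAPDH, a measure that rises with RNA degradation, was 0.84 with tet and 0.99 without tet in P2, against 1.06 with tet and 0.74 without tet in U937T. P2 was thus 0.22 below U937T with tet and 0.25 above it without tet, while the means of both conditions were 0.91 in P2 and 0.90 in U937T.

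Some markers of the label were high in both lines and others were low in both. Of 13 myelomonocytic markers, 12 were measured and 0 passed the test. Transcripts of the granule protease CTSG stood at 12.45 and 11.73 in P2 with and without tet, against 12.51 and 11.91 in U937T, and those of the myeloid transcription factor SPI1 at 9.52 and 9.25 in P2, against 9.44 and 9.30 in U937T. Of the defining markers, MPO (4.87 and 4.94 in P2, against 5.09 and 5.03 in U937T), ANPEP (4.11 and 3.91 in P2, against 3.97 and 4.32 in U937T) and FCGR1A (3.45 and 3.56 in P2, against 3.29 and 3.65 in U937T) were low in both lines. These 5 of the 12 were picked after their values had been seen.

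The 2 genes on which the EVI1 experiment turns were checked first. MECOM, the gene that encodes EVI1, read 6.90 with tet and 5.91 without tet in P2, against 6.48 and 6.53 in U937T, and E10 and E14 read 10.51 and 9.98 without tet. MS4A3, a four-transmembrane protein gene of the myeloid lineage, read 12.16 and 11.86 in P2, against 12.17 and 11.97 in U937T. Neither gene passed the test between the control lines (MECOM difference -0.10 with SE 0.21, MS4A3 -0.06 with SE 0.10, adjusted p = 1 for both in limma). The MECOM mean joins opposite differences, 0.42 with tet and -0.61 without tet. The second minus the first was -1.03 (SE 0.31) and was not called either (adjusted p = 0.36 in limma). The other probe sets of MECOM read at most 3.57 in any line at 48 h, so that its reading rests on 1 probe set.

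P2 and U937T were close across the transcriptome. Over genes, the SD of the difference P2 minus U937T was 0.21 with tet and 0.22 without tet on the log2 scale, and that of E10 minus E14 at 48 h was 0.18 with tet and 0.17 without tet. Differences of at least 2-fold were found for 8 genes with tet and 9 genes without tet. The median difference was 0.00 with tet and -0.01 without tet.

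What differed in 1 tet condition mostly did not differ in the other. P2 lay on the same side of U937T in both conditions for 7269 of 17860 genes (40.7%), and across genes the difference with tet and that without tet had a correlation of -0.21, against 0.03 for E10 minus E14 (genes are not independent, and each difference shares its arrays over all genes). At 1.5-fold in both conditions, 6 genes were higher and 4 were lower in P2, and 15 genes went opposite ways, 9 of them lower with tet and higher without tet. For E10 minus E14 at 48 h, the same counts were 3 higher, 3 lower and 0 opposite. At 2-fold in both conditions, MAN1A1 alone was left, and it was higher in P2.

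**Figure D1:**
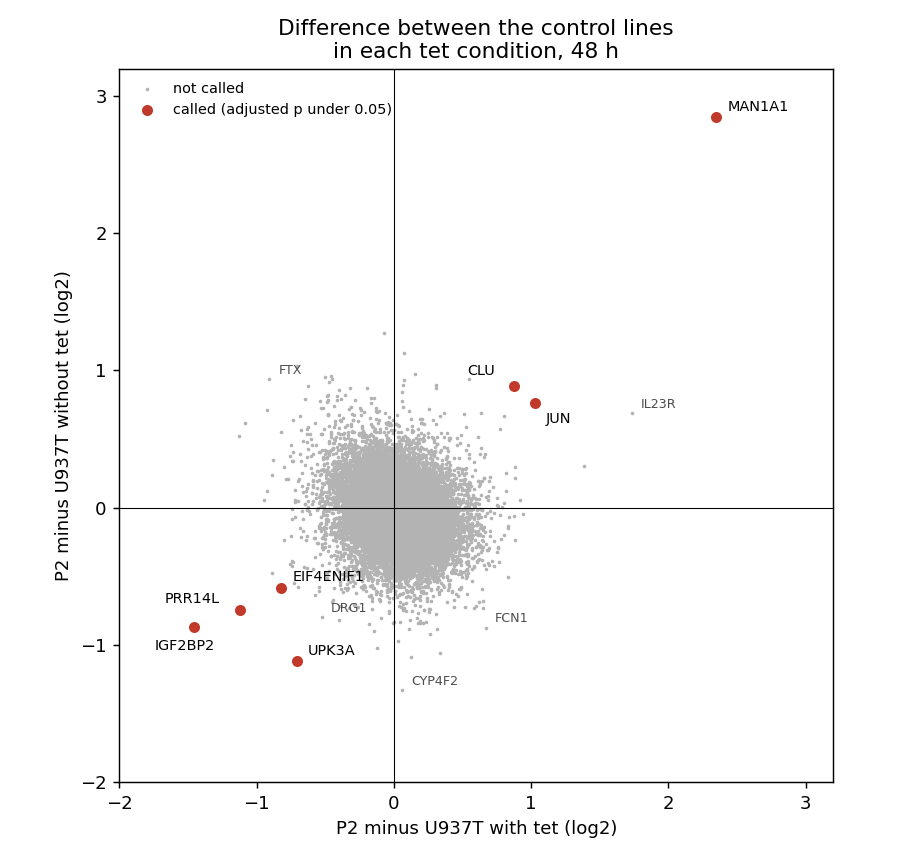
Difference P2 minus U937T in log2 levels with tet (horizontal axis) and without tet (vertical axis) for 17860 genes, 1 point per gene, with the called genes in red. The 3 genes called higher lie in the upper right and the 4 called lower in the lower left, while most genes with a large difference in 1 condition lie near 0 or on the other side in the other.

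In the fit over all 20 arrays, 7 of 17860 genes (0.0392%) differed between P2 and U937T at an adjusted p under 0.05. Higher in P2 were MAN1A1, JUN and CLU (0.0168%), and lower in P2 were IGF2BP2, PRR14L, UPK3A and EIF4ENIF1 (0.0224%). At an unadjusted p under 0.05 there were 805 genes (362 higher, 443 lower), or 4.51% of those tested. The test takes 7 of its 8 residual degrees of freedom from E10 and E14. Within the control lines, the deviation of each tet condition from the mean difference had an SD of 0.17 over genes, against 0.12 in the clones at 48 h. Without the array with tet of either line, MAN1A1 was the 1 gene called, and without the array without tet of either line, MAN1A1, IL23R, IGF2BP2 and PRR14L were called. On the 8 arrays at 48 h alone, MAN1A1 was the 1 gene called (0.0056%), and for E10 minus E14 in that same fit the count was 0 (0%; 493 at an unadjusted p under 0.05, against 629 for P2 minus U937T).

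MAN1A1 encodes a Golgi alpha-mannosidase that trims N-linked glycans. It had the largest difference of all 17860 genes. Its level was 5.72 with tet and 5.79 without tet in P2, against 3.37 and 2.94 in U937T. The EVI1 clones sided with P2, at 5.61 in E10 and 5.65 in E14 with tet, so that U937T was the 1 line of 4 with a low level. The mean difference was 2.60 (SE 0.13, adjusted p = 2.3e-07), a 6.06-fold higher level in P2. A further probe set of the gene did not pass the intensity filter and read 3.46 and 2.94 in P2, against 3.05 and 2.79 in U937T.

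JUN, a subunit of the AP-1 transcription factor and an immediate early gene, read 9.002 with tet and 9.11 without tet in P2, against 7.97 and 8.35 in U937T. The difference was 0.90 (SE 0.12, adjusted p = 0.015). With tet, E10 read 9.18 and E14 9.06, close to P2 and above U937T. All 4 probe sets of JUN were higher in P2, with differences from 0.32 to 0.90. The one used carries the suffix x_at, which marks probes that also match other transcripts.

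CLU, which encodes the extracellular chaperone clusterin, read 6.66 with tet and 7.29 without tet in P2, against 5.79 and 6.40 in U937T. The difference of 0.88 (SE 0.12, adjusted p = 0.015) was nearly the same in both conditions, 0.87 with tet and 0.89 without tet, although the level itself was higher without tet in both lines. E10 stood at 6.82 and E14 at 7.01 with tet, again nearer to P2. All 4 probe sets were higher in P2, with differences from 0.28 to 0.88.

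IGF2BP2 encodes an RNA-binding protein of stem and progenitor cells that binds the IGF2 mRNA. It read 4.82 with tet and 5.02 without tet in P2, against 6.28 and 5.89 in U937T, a difference of -1.16 (SE 0.16, adjusted p = 0.015). E10 at 5.61 and E14 at 5.72 with tet lay between the control lines. A further probe set differed by -0.16, at 4.47 and 4.42 in P2, against 4.67 and 4.54 in U937T.

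UPK3A, a uroplakin gene known from the urothelium, read 5.53 with tet and 4.81 without tet in P2, against 6.23 and 5.92 in U937T (difference -0.91, SE 0.12, adjusted p = 0.015). It has 1 probe set. E10 and E14 read 5.74 and 5.67 with tet, and 5.08 and 4.85 without tet, so that U937T was the highest line in both conditions and P2 the lowest.

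PRR14L, a relative of the proline-rich protein gene PRR14, read 8.70 with tet and 9.01 without tet in P2, against 9.81 and 9.76 in U937T. Here P2 was the line that stood apart, since E10 and E14 read 9.67 and 9.66 with tet and 9.89 and 9.85 without tet. The difference was -0.93 (SE 0.10, adjusted p = 0.0037). The other 3 probe sets of the gene, at levels from 4.93 to 6.24 in the control lines, were also lower in P2, by 0.18 to 0.41.

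EIF4ENIF1 encodes the 4E transporter, which carries the cap-binding protein eIF4E into the nucleus and represses translation. It read 7.38 with tet and 7.51 without tet in P2, against 8.19 and 8.09 in U937T, with a difference of -0.70 (SE 0.11, adjusted p = 0.030). P2 was again the lowest of the 4 lines, since E10 and E14 read 8.47 and 8.29 with tet. Its other probe set was below the intensity filter and differed by 0.11.

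**Figure D2:**
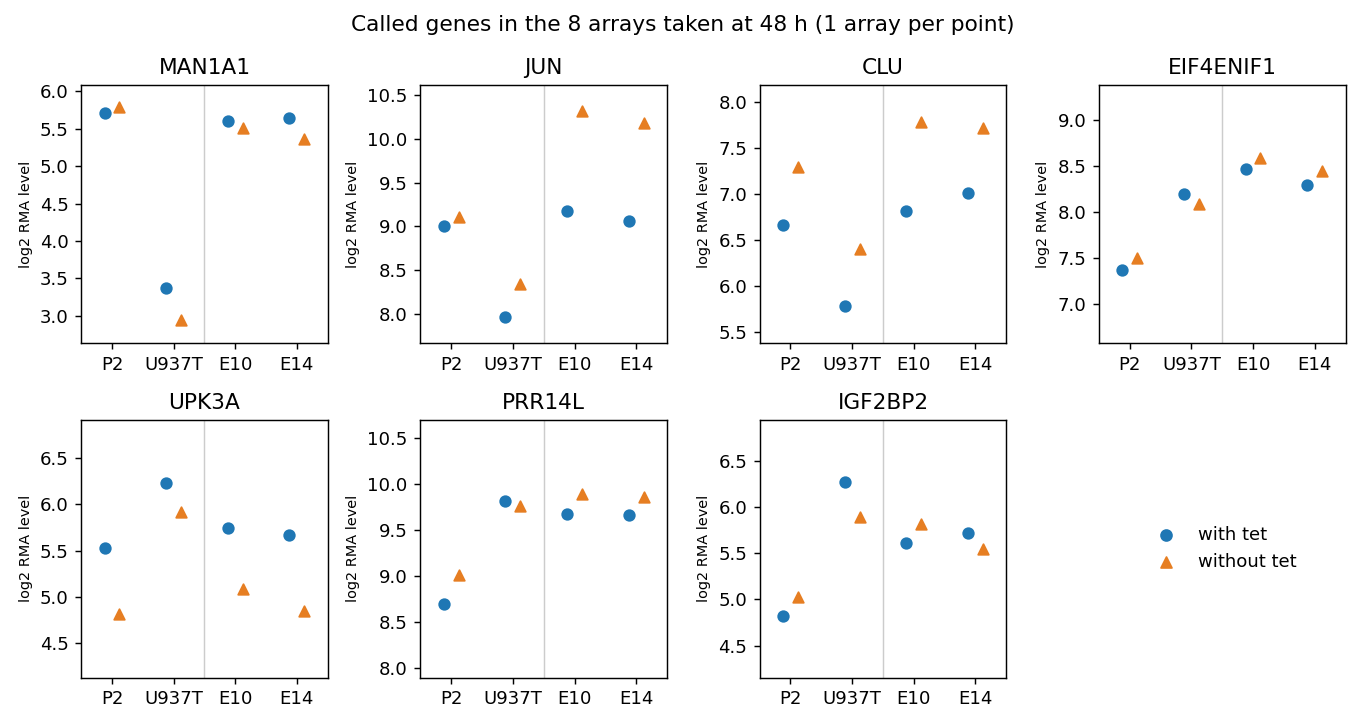
Levels (log2 RMA) of the 7 called genes in the 8 arrays at 48 h, 1 point per array, for P2, U937T, E10 and E14 with tet (circles) and without tet (triangles). For MAN1A1, JUN and CLU, U937T lies below all other lines, and for PRR14L and EIF4ENIF1, P2 lies below all other lines.

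The line that stood apart was thus not the same for every gene. With tet, the mean level of E10 and E14 lay nearer to P2 for MAN1A1, JUN, CLU and UPK3A and nearer to U937T for IGF2BP2, PRR14L and EIF4ENIF1. Over the 30 genes with the largest differences, 15 in each direction, it lay nearer to P2 for 12 and nearer to U937T for 18. P2 was the nearer line for 8 of the 15 genes higher in P2 and for 4 of the 15 lower ones, and for 49.6% of all genes.

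PRR14L and EIF4ENIF1 are neighbours on chromosome 22. Between and beside them lie SFI1, which encodes a centrin-binding protein of the centrosome, DRG1, which encodes a GTP-binding protein, and DEPDC5, which encodes a subunit of the GATOR1 complex that restrains mTORC1. These 5 consecutive measured genes were all lower in P2 in both tet conditions. The run was singled out after the values had been seen and carries no test of its own.

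The sequence around the start of the 2 called genes of the run, and of MAN1A1, is given because MAN1A1 had the largest difference of all genes and the other 2 carry the calls of the run. Each window runs from 250 bases before to 50 bases after the start of the gene (RefSeq, GRCh38.p14). MAN1A1 lies at chr6:119349712-119350011, EIF4ENIF1 at chr22:31489793-31490092 and PRR14L at chr22:31750083-31750382, all on the minus strand and written 5′ to 3′ on it. Capitals mark the GC box GGGCGG or its reverse complement CCGCCC, the motif of SP1-type factors, of which the windows hold 4, 1 and 3 copies in that order.
MAN1A1: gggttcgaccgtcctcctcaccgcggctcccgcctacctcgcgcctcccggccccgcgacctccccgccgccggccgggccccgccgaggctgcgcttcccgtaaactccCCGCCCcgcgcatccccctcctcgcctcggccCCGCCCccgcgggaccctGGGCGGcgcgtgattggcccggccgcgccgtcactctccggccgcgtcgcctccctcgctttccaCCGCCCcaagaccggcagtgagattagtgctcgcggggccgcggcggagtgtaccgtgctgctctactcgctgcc
EIF4ENIF1: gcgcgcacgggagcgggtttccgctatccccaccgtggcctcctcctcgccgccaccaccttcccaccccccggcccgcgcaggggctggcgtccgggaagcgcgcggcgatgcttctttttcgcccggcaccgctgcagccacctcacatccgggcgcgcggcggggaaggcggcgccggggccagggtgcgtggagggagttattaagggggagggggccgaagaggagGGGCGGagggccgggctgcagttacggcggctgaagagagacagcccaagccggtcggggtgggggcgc
PRR14L: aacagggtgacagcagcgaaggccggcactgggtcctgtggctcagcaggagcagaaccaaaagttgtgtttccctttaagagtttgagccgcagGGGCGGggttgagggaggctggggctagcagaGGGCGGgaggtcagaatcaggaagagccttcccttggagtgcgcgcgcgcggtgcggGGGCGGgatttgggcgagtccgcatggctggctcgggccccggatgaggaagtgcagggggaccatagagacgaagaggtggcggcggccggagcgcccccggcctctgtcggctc
The windows have a GC content of 77.3% (MAN1A1), 74.7% (EIF4ENIF1) and 66.7% (PRR14L). At least 1 copy of the motif was found in 45.0% of the 35116 promoter windows of this length, so that the presence of a copy does not set these genes apart. The number of copies and the GC content were not compared with those of other windows. Promoter windows were found for 23 of the 30 genes with the largest differences.

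In the order in which the genes lie, DRG1 read 9.85 with tet and 9.54 without tet in P2, against 10.37 and 10.34 in U937T, a difference of -0.66 (SE 0.14) that was not called (adjusted p = 0.28). SFI1 read 7.11 and 6.91 in P2, against 7.42 and 7.25 in U937T (difference -0.33, SE 0.11, adjusted p = 0.98). DEPDC5 read 6.17 and 6.03 in P2, against 6.51 and 6.39 in U937T (difference -0.35, SE 0.10, adjusted p = 0.65). In each of the 5 genes the groups did not overlap, and P2 was the lowest of the 4 lines with tet and without tet. Over all 17860 genes, P2 lay below U937T without overlap in 9.75%, was the lowest line in both conditions in 5.78%, and met both criteria in 2.54%.

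With tet, P2 lay below E10 by 0.32 to 1.09 and below E14 by 0.23 to 0.97 in these genes. U937T differed from E10 by -0.27 to 0.15 and from E14 by -0.20 to 0.15. Of the 12 probe sets of the 5 genes, 11 were lower in P2, the exception being the weak probe set of EIF4ENIF1. The 4 probe sets of SFI1 differed by -0.21 to -0.90, and the one with the largest difference was a weaker probe set than that used for the gene (5.67 and 5.87 in P2, against 6.78 and 6.56 in U937T). A probe set annotated to 2 gene symbols, both of which start between SFI1 and PRR14L, was left out of the gene table for that reason. It read 7.41 and 7.10 in P2, against 8.22 and 7.98 in U937T (difference -0.84, adjusted p = 0.024 when all 54675 probe sets were tested together).

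Beyond the run the differences were smaller. On the side of DRG1, the noncoding gene LINC01521 was at 4.29 and 3.92 in P2, against 4.43 and 4.37 in U937T (difference -0.30). It was also lower in P2 in both conditions, so that the run has no sharp edge on this side. PIK3IP1-DT, the next gene, differed by 0.17 with tet and -0.17 without tet. On the side of DEPDC5, YWHAH-AS1 differed by -0.08 and YWHAH by -0.12. Among the 36 other genes within 20 places of SFI1, the median difference was 0.00 and the range -0.30 to 0.33, and 15 were on the same side of U937T in both conditions. DNA copy number was not measured.

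Over all 17696 windows of 5 neighbouring genes, the median difference ranged from -0.66 to 0.32, and the lowest value was shared by the window of DRG1 to DEPDC5 and the overlapping one of LINC01521 to PRR14L (with tet -0.52, without tet -0.59). Outside this run the lowest window median was -0.31, around KLRG1 and A2M on chromosome 12. For E10 minus E14 the window medians ranged from -0.34 to 0.33, and the window of the run stood at 0.10. Whole chromosomes did not differ to this degree, since the medians of 23 chromosomes (1 to 22 and X) lay between -0.03 (chromosome 21) and 0.01 (chromosome 16), with 443 genes of chromosome 22 at 0.01.

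**Figure D3:**
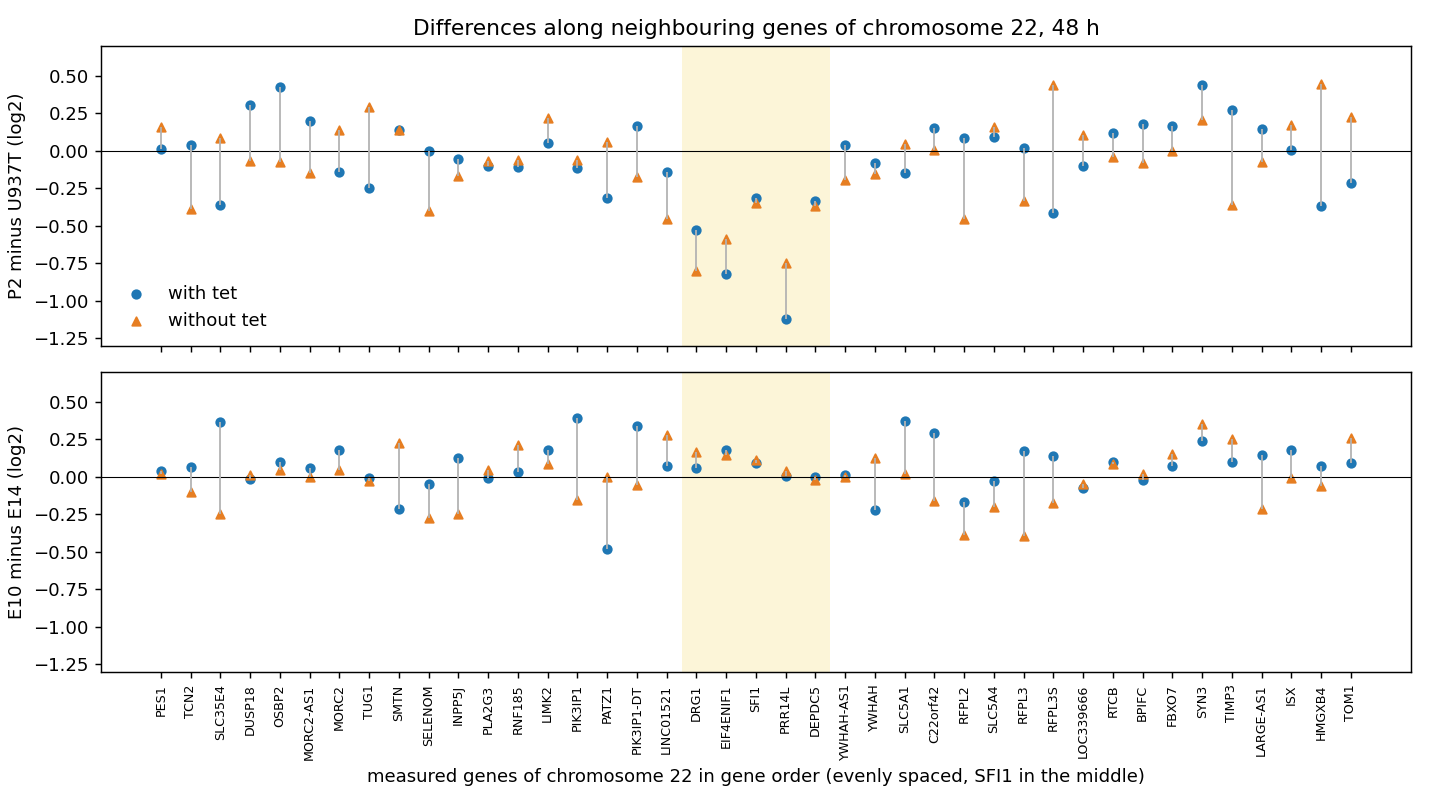
Difference in log2 levels along 41 measured genes of chromosome 22 in gene order, P2 minus U937T above and E10 minus E14 below, with tet (circles) and without tet (triangles), and the run of 5 genes shaded. In the run, P2 is 0.31 to 1.12 below U937T in each condition, while the differences of E10 minus E14 lie between -0.02 and 0.18.

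Other large differences, some of them above those of called genes, did not pass the test. Among genes higher in P2, IL23R, a subunit of the interleukin-23 receptor, read 5.24 with tet and 4.47 without tet in P2, against 3.51 and 3.78 in U937T, a difference of 1.21 (SE 0.21, adjusted p = 0.095). E10 at 3.73 and E14 at 3.94 with tet resembled U937T. Its further probe set, which lies below the intensity filter, read 4.98 and 3.73 in P2, against 2.64 and 2.57 in U937T, and was called when all 54675 probe sets were tested together (difference 1.75, adjusted p = 0.024).

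ROBO3, an axon guidance receptor gene, read 6.89 and 6.69 in P2, against 6.25 and 6.00 in U937T, and its difference of 0.66 (SE 0.11, adjusted p = 0.095) was nearly the same in both conditions. AIG1 read 5.54 and 6.71 in P2, against 4.99 and 5.78 in U937T (difference 0.74, SE 0.15, adjusted p = 0.24). Here the array of P2 with tet lay below that of U937T without tet, so that the lines overlapped unless compared within a tet condition. The further probe sets of AIG1, at lower levels, differed by -0.08 and 0.41. The other genes with the largest positive differences were the interferon-stimulated IFIT2, IFIT1 and IFI44, EGR1, the tetraspanin gene CD53, SRGAP2, PKIB, TSGA10 and the pseudogene SEPTIN7P14, with differences from 0.57 to 0.85. SRGAP2 differed by 0.07 with tet and 1.13 without tet, so that its place rests on 1 condition. A further probe set of EGR1 differed by -0.26 with tet and 0.52 without tet. SRGAP2 and SEPTIN7P14 have near-identical copies in the genome, so that the probe sets may read more than 1 of them.

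Among genes lower in P2, HSPA13, which encodes a microsomal member of the HSP70 family, read 8.73 with tet and 9.20 without tet in P2, against 9.43 and 9.78 in U937T (difference -0.64, SE 0.12, adjusted p = 0.13). Its second probe set gave the same size, -0.66, at 7.59 and 7.83 in P2, against 8.18 and 8.57 in U937T. With tet E10 and E14 read 9.45 and 9.53, near U937T, so that P2 was the low line.

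INHBA encodes the subunit of activin A. It read 9.71 with tet and 8.51 without tet in P2, against 10.44 and 9.06 in U937T (difference -0.64, SE 0.13, adjusted p = 0.24), and was lower without tet in both lines. BIVM read 3.08 and 2.96 in P2, against 3.62 and 3.57 in U937T (difference -0.58, SE 0.10, adjusted p = 0.095), but only 1 of its 5 probe sets showed a difference of this size and 3 had a positive one. The other genes of this rank were CXCL12, the chemokine that retains progenitors in the bone marrow, KICS2, a subunit of the KICSTOR complex that acts with GATOR1 on mTORC1, MFAP4, TRIM16, ZNF616, ZNF658 and the pseudogene CES1P1, with differences from -0.68 to -0.57. ZNF616 differed by -0.12 with tet and -1.02 without tet, so that its place rests on 1 condition. The further probe sets of KICS2 differed by -0.11 and -0.12.

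Groups of genes were described through 33 lists, of which 630 distinct genes were measured. Called among them were 2 genes, JUN (immediate early genes) and IGF2BP2 (stem and progenitor genes). The lists are given by their counts and medians beside those of all genes, of which 20.2% were higher in P2 in both tet conditions, 20.5% were lower in both and 59.3% went opposite ways, with a median difference of 0.00.

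Interferon-stimulated genes are the antiviral set switched on by interferon receptors. Of 36 measured members 0 were called, 19 were higher in P2 in both conditions, 4 were lower in both and 13 went opposite ways, and the median difference was 0.13 (0.07 with tet, 0.11 without tet). IFIT2 read 6.01 with tet and 6.39 without tet in P2, against 4.62 and 6.08 in U937T (difference 0.85, SE 0.21, adjusted p = 0.48). U937T with tet was the low array, since E10 and E14 read 6.35 and 6.94 with tet.

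IFIT1 read 5.50 and 6.11 in P2, against 4.70 and 5.44 in U937T (difference 0.73, SE 0.15, adjusted p = 0.24), and E10 and E14 at 5.64 and 5.84 with tet again resembled P2. IFI44 read 4.47 and 4.29 in P2, against 3.70 and 3.72 in U937T (difference 0.67, SE 0.18, adjusted p = 0.60), and for this gene P2 was above E10 and E14 (3.21 and 3.47 with tet). The other 33 members differed by -0.14 to 0.29.

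Of 12 measured histone genes, 8 were higher in P2 in both conditions and 0 were lower in both, with a median of 0.19. The largest differences were those of H2AC6 (6.05 and 6.18 in P2, against 5.39 and 5.81 in U937T) and H2BC4 (4.72 and 5.84 in P2, against 4.65 and 4.95 in U937T), and 0 members were called. Histone genes of a class are near-identical, so that their probe sets may not be separate readings.

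Monocyte and macrophage maturation genes had a median below 0. Of 26 measured members, 2 were higher in P2 in both conditions, 12 were lower in both and 12 went opposite ways, with a median of -0.12 and 0 called. S100A9, a calcium-binding protein gene of mature myeloid cells, read 8.21 and 10.33 in P2, against 8.41 and 10.80 in U937T (difference -0.33). The scavenger receptor gene CD163 (4.26 and 4.46 in P2, against 4.88 and 4.49 in U937T) and TREM1 (4.27 and 4.94 in P2, against 4.90 and 4.95 in U937T) had differences of -0.62 and -0.63 with tet and of -0.03 and -0.01 without tet.

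Primary granule protein genes had a median of -0.08, with 10 of 18 lower in both conditions, 4 higher in both and 0 called. CFD read 7.28 and 7.75 in P2, against 7.60 and 8.06 in U937T. ELANE, the neutrophil elastase gene, read 11.50 and 10.91 in P2, against 11.66 and 11.08 in U937T. All differences in this list were between -0.32 and 0.22.

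Among 17 measured stem and progenitor genes, 4 were higher and 5 lower in both conditions, and besides IGF2BP2 the largest difference was that of the stem cell factor receptor gene KIT (4.48 and 4.77 in P2, against 4.42 and 3.93 in U937T, difference 0.45, adjusted p = 1). KIT differed by 0.06 with tet and 0.84 without tet, so that its place rests on 1 condition. E10 and E14 read 5.62 and 5.02 with tet, above both control lines, and 3.93 and 3.99 without tet, near U937T. Among 26 immediate early genes, JUN was followed by EGR1 (9.61 and 8.46 in P2, against 9.30 and 7.58 in U937T, difference 0.59, adjusted p = 1) and ATF3 (6.71 and 6.89 in P2, against 6.23 and 6.64 in U937T, difference 0.36), while the median of the list was -0.01, with 5 members higher and 7 lower in both conditions.

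Integrated stress response genes had 12 of 26 members lower in P2 in both conditions and 3 higher, with a median of -0.09. Genes of glutathione synthesis and oxidant defence had 11 of 30 higher in both and 2 lower, with a median of 0.04, led by SRXN1 (7.72 and 7.77 in P2, against 7.44 and 7.26 in U937T). In both lists 0 genes were called.

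HLA-DRA, an HLA class II gene, read 4.57 and 4.19 in P2, against 4.86 and 4.90 in U937T (difference -0.50, adjusted p = 0.78), while the median of the 14 measured members was 0.02 and the highest difference 0.18. A further probe set of HLA-DRA at a similar level differed by -0.05. PRAME, a cancer-testis antigen gene of many leukemias, read 6.92 and 7.76 in P2, against 7.46 and 8.10 in U937T (difference -0.44, adjusted p = 0.45). ITGAL, an integrin alpha chain gene, read 6.14 and 8.76 in P2, against 5.80 and 8.10 in U937T (difference 0.50, adjusted p = 1). The remaining lists had 0 called genes each, among them 36 S and G2/M phase genes of the cell cycle, all with differences between -0.13 and 0.19 and a median of 0.01, and 15 drug transporter genes with a median of 0.05.

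Markers of other cell types were looked at in the same way. Of 7 lymphoid, 6 erythroid and megakaryocyte and 7 epithelial and fibroblast markers measured, 0 were called. The mean level of the lymphoid list was 5.76 with tet and 5.71 without tet in P2, against 5.65 and 5.79 in U937T. That of the erythroid and megakaryocyte list was 6.19 and 5.82 in P2, against 6.08 and 5.92 in U937T. That of the epithelial and fibroblast list was 5.26 and 5.25 in P2, against 5.23 and 5.22 in U937T.

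Whether the difference between the lines depended on tet was asked by a contrast of the difference without tet minus the difference with tet. Deviations from the mean difference at 48 h had an SD of 0.12 over genes in E10 and E14, against 0.17 in the control lines. This contrast took its SE from E10 and E14 alone. It was called for 0 of 17860 genes (0%), with a smallest adjusted p of 0.25. At an unadjusted p under 0.05 there were 1756 genes (9.83%; 691 higher, 1065 lower), and 1545 genes and 0 called when the 3′ to 5′ difference of each array was a covariate.

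The largest positive contrast was that of FTX, a long noncoding RNA of the X inactivation centre, which read 8.98 with tet and 10.22 without tet in P2, against 9.89 and 9.28 in U937T (1.84, SE 0.38). It was followed by IL1A, the interleukin-1 alpha gene, at 6.05 and 7.61 in P2, against 6.76 and 6.58 in U937T (1.74, SE 0.47), and by SLFN5, at 5.86 and 7.31 in P2, against 6.95 and 6.69 in U937T (1.71, SE 0.56). In the probe sets used for these 3 genes P2 was below U937T with tet and above it without tet. The same held for those of RAMP2-AS1 (1.65) and LINC00597 (1.64). The further probe set of FTX had this pattern as well (-0.78 with tet, 0.55 without tet). That of IL1A (-0.07 and -0.05), that of RAMP2-AS1 (0.31 and -0.33) and the other probe sets of SLFN5 did not. The probe sets used for SLFN5 and RAMP2-AS1 carry the suffix x_at.

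The largest negative contrast was that of FCN1, which encodes the monocyte lectin ficolin-1. It read 4.72 with tet and 5.45 without tet in P2, against 4.05 and 6.32 in U937T (-1.54, SE 0.26), so that it was higher without tet in both lines, but by less in P2. E10 and E14 stood at 4.61 and 4.65 with tet and 7.48 and 7.47 without tet. CYP4F2 (4.78 and 4.86 in P2, against 4.72 and 6.19 in U937T), B3GALT1, OPTC and OMP followed, with contrasts from -1.34 to -1.39.

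Probe sets that were lower in P2 with tet and higher without tet often had no single gene symbol, that is none or several. Over all 54675 probe sets, 200 were at least 1.5-fold lower in P2 with tet and at least 1.5-fold higher without tet, 16 had the reverse pattern, and 14 and 10 were higher and lower in both conditions. Of the 200, 138 (69.0%) carried no single gene symbol, against 24.8% of all probe sets. With the reverse pattern, 2 of the 16 (12.5%) carried no single gene symbol. The 3′ to 5′ difference of P2 minus U937T changed sign with tet in the same way, at -0.22 with tet and 0.25 without tet. Its part in these probe sets was not tested.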

How the data were processed

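The deposited values are log2 intensities that the authors made by Robust Multi-array Analysis (background correction, quantile normalization, median polish) of HG-U133 Plus 2.0 arrays; tool versions are not given in the sources used here. They were used unchanged. Of 54675 probe sets, 41097 had 1 gene symbol. The study's intensity filter (mean log2 of at least 3 in both clones at 24 and 48 h and in both control lines) kept 46203, 35610 of them with 1 symbol. Each gene was read by its brightest probe set on average (17860 genes, 17828 of them matched to RefSeq).

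The model was fitted in limma 3.58.1 (R 4.3.3) to all 20 arrays, with 10 groups (EVI1 clones by time and tet, control lines by tet) and the terms E10 minus E14 and P2 minus U937T (8 residual and 5.74 prior degrees of freedom). For the dependence on tet each control array was its own group, so that its spread came from the clones (7 residual degrees of freedom). Benjamini-Hochberg adjustment ran over all genes tested, and genes with an adjusted p under 0.05 are called. Differences run P2 minus U937T. The test was checked on simulated data.

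Named genes are the 15 with the largest difference in each direction that lay on the same side in both tet conditions, called genes first, up to 4 members of each list, the 5 largest contrasts with tet in each direction, MECOM and MS4A3. Members, rules and lists were chosen with earlier results of these data known. Lists were described, not tested. Alternatives covered the filter, the probe set, centring, the variance model, a 2-fold minimum, a 3′ to 5′ covariate, the arrays fitted, pairing by tet and leaving out each array.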

Additional observations from a re-analysis of the deposited data

Results flagged for a closer look

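Some probe sets outside the table of 17860 genes differed between the lines when all 54675 probe sets were tested in 1 limma fit, in which 5 were called (2106 at an unadjusted p under 0.05). MAN1A1 and PRR14L, which are in the table, were among the 5. An IL23R probe set below the intensity filter differed by 1.75 (4.98 and 3.73 in P2 with and without tet, against 2.64 and 2.57 in U937T, adjusted p = 0.024). A probe set that carries 2 gene symbols, and so names no gene, differed by -0.84 (7.41 and 7.10 in P2, against 8.22 and 7.98 in U937T, adjusted p = 0.024). An ENTPD7 probe set that is not the brightest of its gene differed by -0.88 (3.11 and 2.99 in P2, against 3.94 and 3.91 in U937T, adjusted p = 0.024), while the one that stood for ENTPD7 in the table differed by 0.11.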

How the results depend on the processing

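The fit over 20 arrays called 3 genes higher and 4 lower in P2. It called 1 and 0 on the 48 h arrays alone and on the 4 arrays of P2 and U937T alone, and 1 and 1 with a 2-fold minimum. Leaving out 1 array of P2 or U937T gave 1 to 2 higher and 0 to 2 lower. With the line labels exchanged between the tet conditions it called 0 and 0 (1764 at an unadjusted p under 0.05 in limma). This exchange turns the difference into the contrast for the dependence on tet on another scale, so that it is not a separate check. The other settings, of which the fit of all probe sets together was added after seeing the data, stayed within 1.5 times of both counts. That fit counted probe sets, and of the 7 called genes only MAN1A1 and PRR14L kept the call in it. The others had adjusted p from 0.052 (JUN) to 0.14 (EIF4ENIF1) in that limma fit. The counts for single genes that follow leave out the exchange of labels, the 2-fold minimum and the fit of all probe sets together. MAN1A1 was called in all 12 alternatives counted in this way. The other called genes lost the call in 4 (IGF2BP2 of 12, PRR14L of 13), 6 (JUN) or 7 (CLU, UPK3A, EIF4ENIF1) of 13 alternatives, with no change of sign. Leaving out the array of P2 or of U937T in a tet condition gives the same fit, so these alternatives are not all separate. Among the 30 genes with the largest differences, MECOM and MS4A3, only MECOM changed sign, with values from -0.61 without the P2 or U937T array with tet to 0.42 without one of those without tet. The dependence on tet was called for 0 genes in every alternative run. For E10 minus E14, the fit of all 16 clone arrays, added after seeing the data, called 23 genes higher and 34 lower, against 0 at 48 h. The lowest 5-gene window median on chromosome 22 stood at -0.66, and at -0.52 with tet and -0.59 without tet. At 2-fold in place of 1.5-fold, 1 gene in place of 10 had the same direction in both tet conditions, and 0 in place of 15 opposite ones. The 2 called genes of the lists were also called with another probe set rule or centring. With 1 array per line and condition, a difference between lines cannot be separated from one between cultures.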
